A study of Arabidopsis thaliana with 6 samples.

Results

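The ethylene response factor (ERF) and dehydration-responsive element binding (DREB) genes described here are 51 members of the AP2/ERF family of transcription factors. They were chosen by locus identifier out of 36796 genes in the deposited table, and they were compared by subgroup between *ref4-3* and wild-type Arabidopsis. The *ref4-3* plants carry a semidominant point mutation in the gene for MED5b, a protein of the tail module of the Mediator complex, and the wild-type plants are of the same Col-0 ecotype. RNA came from whole rosettes of 21-day-old plants that had not bolted, grown on soil at 22°C in a 16-h light and 8-h dark cycle and collected 6 h into the light period. There were 3 biological replicates of each genotype, and each replicate pooled 5 plants. The series was made to ask whether changed H3K27me3 has a part in the changed transcript levels of *ref4-3*. A point mutation need not alter the level of the *MED5b* transcript, so these counts cannot check the genotype of a library.

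ERF and DREB proteins bind DNA through a single AP2 domain. ERF proteins typically recognize the GCC box of defense and ethylene response genes, and DREB proteins bind the dehydration-responsive or C-repeat element of cold and drought response genes. Group IX ERFs are mostly transcriptional activators, whereas group VIII ERFs carry an EAR motif and repress the same kind of target. CBF/DREB1 genes act in cold acclimation, DREB2 genes in drought and heat responses, and group VII ERFs in the response to low oxygen. Cytokinin response factors (CRFs) act in development and senescence. Transcripts of many of these genes accumulate within minutes of touch, wounding, light or pathogen signals and then decline.

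Promoters were searched for 6 short motifs to show what the genes share in sequence, in a window of 250 bases before and 50 bases after the annotated start (TAIR10.1 genome, RefSeq annotation; 51 of 51 members matched). The G box, CACGTG, is bound by basic helix-loop-helix factors such as MYC2 and the PIFs and by bZIP factors. It was found in 15 of 51 member promoters (29.4%), against 7.68% of 27443 promoters of protein-coding genes. The GCC box, GCCGCC, was found in 5 member promoters (9.8%), against 2.57% of all promoters. The CAMTA box, CGCGTT, was found in 4 member promoters (7.84%, against 3.4%), and the evening element, AAAATATCT, in 3 (5.88%, against 2.82%). The core of the dehydration-responsive element, CCGAC, was found in 6 (11.8%, against 15%), and the W box core, TTGAC, in 25 (49%, against 50.5%). Both strands were searched, the letters of no motif contain those of another, and matches that overlapped were counted for each motif. A match describes these letters only and is not a binding site.

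**Figure D1:**
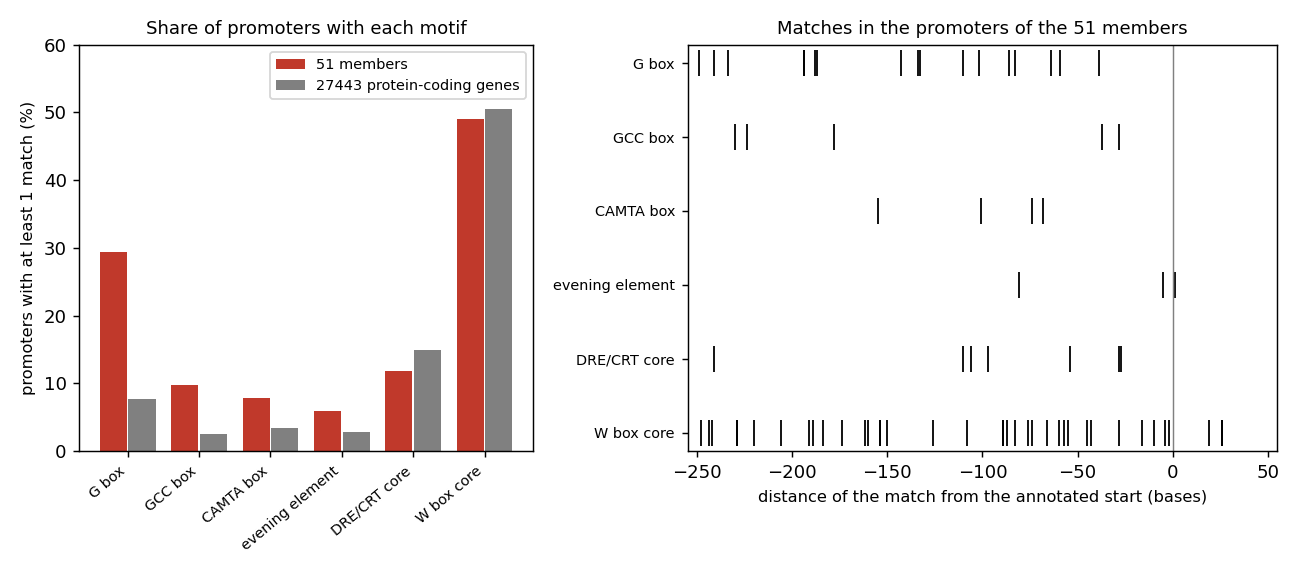
Left, the percentage of promoters with at least 1 match to each motif, for the 51 members (red bars) and for 27443 protein-coding genes (grey bars); right, the distance in bases of each match from the annotated start (grey line) in the members' promoters. The G box bar of the members stands at 29.4%, against 7.68% for all promoters, and the W box core bars stand near each other at 49% and 50.5%.

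The promoters of 6 members with lower transcript levels in *ref4-3* plants are printed because they hold the motif that was most frequent among the members relative to all promoters, or, for *ERF11*, the GCC box. Each is the 250 bases before the annotated start, 5′ to 3′ on the gene's strand, with the G box in capitals, or the GCC box in capitals for *ERF11*. The stretches are chr4:9758953-9759202 (plus strand) for *ERF1A*, chr5:19172957-19173206 (minus) for *ERF2*, chr3:5121053-5121302 (plus) for *ERF4*, chr4:13016236-13016485 (minus) for *CBF2*, chr4:16451626-16451875 (plus) for *RRTF1* and chr1:9956981-9957230 (minus) for *ERF11*.
ERF1A: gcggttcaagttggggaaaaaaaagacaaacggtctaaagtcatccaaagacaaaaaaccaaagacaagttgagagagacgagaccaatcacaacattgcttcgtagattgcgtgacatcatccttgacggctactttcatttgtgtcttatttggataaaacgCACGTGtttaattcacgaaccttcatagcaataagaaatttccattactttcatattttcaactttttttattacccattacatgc
ERF2: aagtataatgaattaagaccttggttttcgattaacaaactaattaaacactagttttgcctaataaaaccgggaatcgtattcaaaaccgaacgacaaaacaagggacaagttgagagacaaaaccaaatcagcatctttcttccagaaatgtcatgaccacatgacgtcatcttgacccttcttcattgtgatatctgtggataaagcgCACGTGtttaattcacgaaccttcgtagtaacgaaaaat
ERF4: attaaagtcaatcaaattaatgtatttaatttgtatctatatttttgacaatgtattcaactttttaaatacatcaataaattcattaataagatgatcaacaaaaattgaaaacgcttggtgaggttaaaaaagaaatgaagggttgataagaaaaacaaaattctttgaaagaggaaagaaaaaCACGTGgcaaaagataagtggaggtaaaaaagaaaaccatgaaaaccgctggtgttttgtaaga
CBF2: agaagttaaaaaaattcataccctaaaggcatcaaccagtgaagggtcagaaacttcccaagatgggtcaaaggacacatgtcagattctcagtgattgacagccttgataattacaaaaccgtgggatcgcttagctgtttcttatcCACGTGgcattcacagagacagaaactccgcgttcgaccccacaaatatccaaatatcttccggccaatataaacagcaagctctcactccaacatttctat
RRTF1: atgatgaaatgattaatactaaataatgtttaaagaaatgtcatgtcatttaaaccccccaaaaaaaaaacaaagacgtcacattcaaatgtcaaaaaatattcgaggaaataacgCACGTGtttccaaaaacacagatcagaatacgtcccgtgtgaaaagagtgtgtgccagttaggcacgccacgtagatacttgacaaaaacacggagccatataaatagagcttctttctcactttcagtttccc
ERF11: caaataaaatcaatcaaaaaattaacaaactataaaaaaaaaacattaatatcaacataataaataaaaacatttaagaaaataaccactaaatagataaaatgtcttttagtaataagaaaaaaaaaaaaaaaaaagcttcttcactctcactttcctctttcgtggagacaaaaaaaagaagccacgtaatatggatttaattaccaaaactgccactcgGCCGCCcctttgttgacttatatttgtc

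The G box began 86 bases before the start in *ERF1A*, 39 in *ERF2*, 64 in *ERF4*, 102 in *CBF2* and 134 in *RRTF1*, and the GCC box of *ERF11* began 28 bases before its start. The promoters of *ERF1A* and *ERF2*, on chromosomes 4 and 5, share a stretch of 26 identical bases around the G box, cgCACGTGtttaattcacgaaccttc. *RRTF1* and *ERF1A* share a stretch of 13 bases, aacgCACGTGttt. *CBF2* also holds a CAMTA box that begins 74 bases before its start.

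The 6 libraries held 26060005 to 32879414 counts, and levels are given as CPM, counts scaled to a common library size with TMM factors. A detection limit of 3 counts, which covers counting error only, stood at 0.0871 to 0.124 CPM. Wild-type replicate 2 stood apart: it had counts on 27913 genes, against 32015 to 34884 in the other 5 libraries. Its correlations of log2 CPM with the other wild-type libraries were 0.9642 and 0.9693, whereas those 2 libraries correlated at 0.9794. The leaf markers *RBCS1A*, *CAB1* and *LHCB2.1* summed to between 20577 and 27028 CPM in *ref4-3* libraries, against 40495 to 43269 CPM in wild-type libraries, and 2 of the 3 were called lower (adjusted p-value under 0.05 in edgeR's quasi-likelihood test). Both root markers, *PYK10* and *BGLU22*, were called higher, with sums of 78.1 to 159 CPM in *ref4-3* libraries, against 21.8 to 23.1 CPM in wild-type libraries. The 4 flower markers summed to at most 7.27 CPM in *ref4-3* and 10.7 CPM in wild-type libraries, and the 2 seed markers to at most 3.15 CPM in *ref4-3* and 1.87 CPM in wild-type libraries. No flower or seed marker was called.

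Most ERF and DREB genes with a changed transcript level exhibited decreased levels in *ref4-3* plants. Of the 51 members, 50 passed edgeR's filter on low counts, and 26 of these (52%) were called lower in *ref4-3* plants by the same test, against 11.9% of the 23050 genes tested. In the other direction, 3 members (6%) were higher, against 8.52% of all genes tested, and 21 were not called. When a fold change above 2 was also required, 24 members were lower, against 5.24% of all genes, and 3 were higher, against 4.48% of all genes. Every *ref4-3* library lay below every wild-type library for 31 members (62%), against 22.8% of all genes, and above for 4 members, against 22.4% of all genes. The log2 fold change of *ref4-3* over wild type was below 0 for 40 of the 50 members. Its median was -1.67, with a range of -5.40 (*ORA47*) to 1.81 (*RAP2.6L*), whereas the median over all genes tested was 0.01. The members were chosen with earlier results of these data known, so these shares describe the list and are no test of the family. In bulk rosette tissue, fewer cells that express a gene and less RNA per cell cannot be told apart.

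The filter bears on these counts, because 8 members reached its minimum of 0.322 CPM in all 3 wild-type libraries but not in all 3 *ref4-3* libraries, and a gene that passes only in this way had to be lower. These were *ERF1*, *DDF1*, *AT1G22810* and *AT1G19210*, which were called lower, and *CBF4*, *DDF2*, *AT5G21960* and *RAP2.6*, which were not called. *ERF10*, *HRE2* and *ABR1* reached the minimum in all 3 *ref4-3* libraries but not in all 3 wild-type libraries, and none of them was called. Among the 42 members that reached the minimum in all 3 *ref4-3* libraries, 22 were called lower. The share over all genes under the same restriction was not computed, so this count has no matching background. *ERF14* was not tested and had 5, 11 and 10 counts in *ref4-3* libraries, against 5, 0 and 5 counts in wild-type libraries, where the count of 0 allows up to 0.104 CPM.

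**Figure D2:**
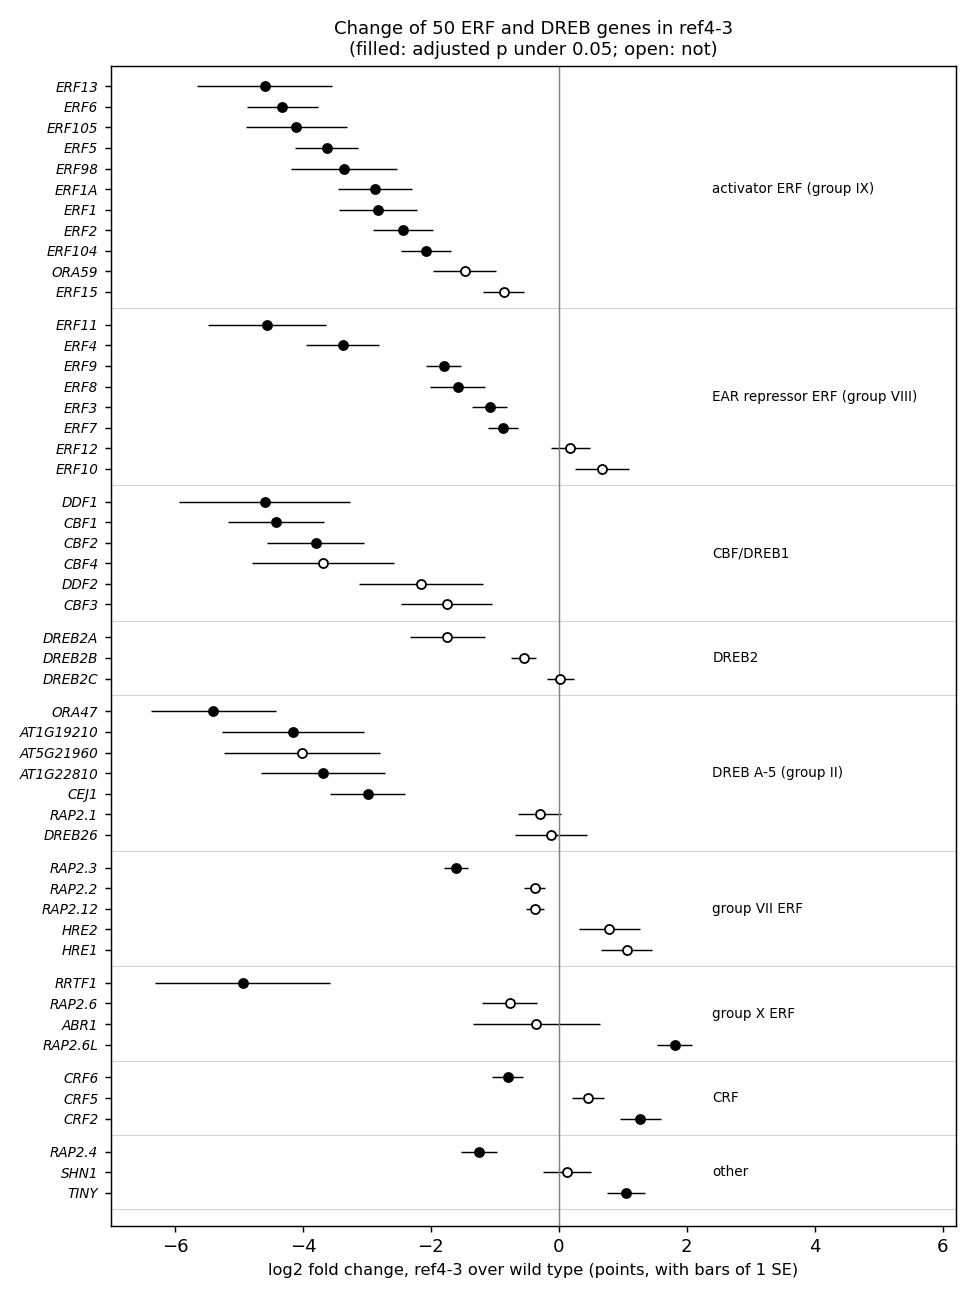
Log2 fold change of *ref4-3* over wild type (horizontal axis, points with bars of 1 SE) for the 50 tested ERF and DREB genes, grouped by subgroup; filled points have an adjusted p-value under 0.05 and open points do not. Of the 29 filled points, 26 lie left of 0 and 3 (*RAP2.6L*, *CRF2* and *TINY*) lie right of it.

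Wild-type libraries differed from each other more than *ref4-3* libraries did. The median SD of log2(CPM + 0.5) over the 50 members was 0.32 among *ref4-3* libraries and 0.83 among wild-type libraries. Over all genes tested it was 0.16 among *ref4-3* and 0.21 among wild-type libraries. Wild-type replicate 2 was the highest wild-type library for 24 of the 26 members called lower (92.3%), against 33.8% of all genes tested. It exceeded the mean of the other wild-type libraries by more than 2-fold for 20 of these 26 members (76.9%), against 3.95% of all genes. All members together summed to 582, 559 and 570.2 CPM in *ref4-3* libraries, against 1213, 3293 and 1538 CPM in wild-type replicates 1, 2 and 3. Genotypes therefore did not overlap with or without wild-type replicate 2. Without that library, 20 members were called lower, 19 of them among the 26, and the median log2 fold change of the members was -1.05. The fold change of 18 of the 29 called members was then over 1.5 times smaller, with log2 fold changes of -1.47 (*ERF104*) to -3.79 (*ORA47*) among these 18, and all 29 kept their direction. Leaving out *ref4-3* replicate 1 or 3 made the fold change over 1.5 times larger for 2 or 3 of the called members. Without *ref4-3* replicate 1, 2 or 3, the number called lower was 16, 7 or 4. In the same fits, 2876, 1885 or 1008 of all genes were called in either direction, against 2737 lower and 1964 higher with all 6 libraries. Calls for *ERF5*, *ERF6*, *ERF9*, *RAP2.3* and *RAP2.6L* held in each of the 6 fits that left out a library, and the other 24 calls were each lost without *ref4-3* replicate 3.

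Rapidly induced genes outside the family were mostly lower in *ref4-3* plants as well, in a list chosen with earlier results of these data known. A list of 13 such genes, which respond to touch, wounding or elicitors, summed to 712, 600.1 and 795 CPM in *ref4-3* libraries, against 1618, 6601 and 2295 CPM in wild-type replicates 1, 2 and 3. Of these, 11 (84.6%) were lower in *ref4-3* plants, against 11.9% of all genes tested, and 2 were not called. The median log2 fold change was -3.46. Without any 1 library, 5 to 12 were lower, with 8, 5 or 5 without *ref4-3* replicate 1, 2 or 3 and 11 without wild-type replicate 2. The largest decreases were those of *WRKY40* (log2 fold change -5.03, SE 0.81, adjusted p = 0.00879), *CML37* (-4.00, SE 1.01, adjusted p = 0.0322) and *CML38* (-3.88, SE 0.88, adjusted p = 0.0235), all from edgeR. The part of this shared pattern in the ERF and DREB results was not tested.

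**Figure D3:**
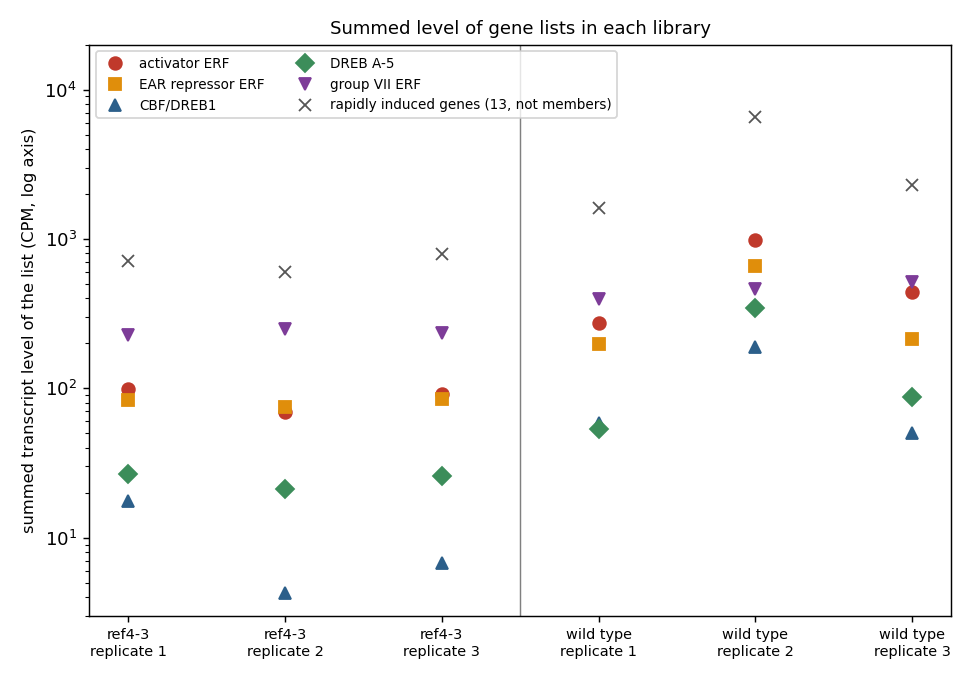
Summed transcript level (CPM, log axis) of 5 subgroups of ERF and DREB genes and of the 13 rapidly induced genes in each of the 6 libraries, *ref4-3* on the left and wild type on the right. Wild-type replicate 2 has the highest sum of every list but group VII, whose 3 wild-type sums are 398, 461 and 514 CPM against 226, 248 and 234 CPM in *ref4-3* libraries.

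Activator ERFs of group IX had the largest share of tested members called lower, 81.8%, against 75% in group VIII and 11.9% of all genes. Of 12 members, 11 were tested, 9 were lower in *ref4-3* plants, none was higher, and the median log2 fold change was -2.87. Every *ref4-3* library lay below every wild-type library for 10 of the 11 (90.9%), against 22.8% of all genes. Outside the members, the tested genes of the same annotated subfamily, B-3, were not called. These were *AT5G61590* (log2 fold change 0.68, adjusted p = 0.139 from edgeR) and *AT5G07580* (0.37, adjusted p = 0.249). Without *ref4-3* replicate 2, and likewise without replicate 3, only 2 of the 9 calls remained, those of *ERF5* and *ERF6*, whereas without wild-type replicate 2 there were 9 calls, with *ORA59* among them and *ERF98* not, and the median was -2.07.

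*ERF6*, which codes for a substrate of the immune MAP kinases MPK3 and MPK6, was at 7.17, 3.91 and 5.28 CPM in *ref4-3* libraries, against 48.6, 199 and 81.9 CPM in wild-type libraries. Its lowest wild-type library was above its highest *ref4-3* library, and its log2 fold change of -4.32 (adjusted p = 0.00466 from edgeR, SE 0.55) was -3.59 without wild-type replicate 2. *ERF5*, its close homolog, was at 5.87, 4.29 and 5.04 CPM in *ref4-3* libraries, against 31.7, 113 and 43.8 CPM in wild-type libraries, a log2 fold change of -3.63 (adjusted p = 0.00536, SE 0.49). Both genes remained lower in each of the 6 fits that left out a library.

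*ERF1A* and *ERF2*, activators that bind the GCC box and whose promoters share the 26 bases above, were lower by less. *ERF1A* was at 13.2, 4.66 and 10 CPM in *ref4-3* libraries, against 34.2, 127 and 43.6 CPM in wild-type libraries (log2 fold change -2.87, SE 0.58, adjusted p = 0.0169). *ERF2* was at 20.7, 17.6 and 26.2 CPM in *ref4-3* libraries, against 45.9, 189 and 113 CPM in wild-type libraries (-2.43, SE 0.47, adjusted p = 0.0148). For both genes the genotypes did not overlap, and wild-type replicate 1 was the lowest wild-type library. *ERF1A* lies 5041 bases from *ERF6* on chromosome 4 with no protein-coding gene between them, and *ERF2* lies 6924 bases from *ERF5* on chromosome 5 with 1 such gene between them.

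*ERF104*, which codes for a substrate of MPK6 in flagellin signaling, was at 25.8, 22 and 19.7 CPM in *ref4-3* libraries, against 61, 163 and 62.2 CPM in wild-type libraries (log2 fold change -2.08, SE 0.39, adjusted p = 0.0139). *ERF105*, a cold-responsive gene, was at 3.11, 1.75 and 1.76 CPM in *ref4-3* libraries, against 9.46, 81.6 and 23 CPM in wild-type libraries (-4.10, SE 0.79, adjusted p = 0.0149). *ERF13* was at 0.813, 0.892 and 1.85 CPM in *ref4-3* libraries, against 5.17, 72.2 and 9.62 CPM in wild-type libraries (-4.60, SE 1.06, adjusted p = 0.0247). None of these genes overlapped between genotypes, and the wild-type libraries of *ERF13* and *ERF105* spread more widely than those of *ERF104*. The log2 fold changes of *ERF13* and *ERF105* were -2.65 and -2.88 when wild-type replicate 2 was left out. The whole of *ERF105* lies within the exons of *AT5G51180* on the opposite strand, which had means of 28.4 CPM in *ref4-3* and 32 CPM in wild-type plants (log2 fold change -0.17, adjusted p = 0.286). The strand setting of the counting is not given in the sources used here, so reads of this pair may not have been told apart.

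*ERF1*, a direct target of EIN3 that integrates ethylene and jasmonate signals, was at 0.61, 0.24 and 0.649 CPM in *ref4-3* libraries, against 1.56, 6.54 and 2.68 CPM in wild-type libraries (log2 fold change -2.82, SE 0.61, adjusted p = 0.0204). Its tandem neighbor *ERF98*, 5452 bases away on chromosome 3, was at 0.581, 0.48 and 0.618 CPM in *ref4-3* libraries, against 0.857, 11.6 and 5.04 CPM in wild-type libraries (-3.36, SE 0.83, adjusted p = 0.0308). Genotypes did not overlap for either gene, but wild-type replicate 1 of *ERF98* was close to the *ref4-3* libraries. *ORA59*, the activator of the *PDF1.2* defensin genes, averaged 6.24 ± 2.77 CPM in *ref4-3* and 17.3 ± 11.6 CPM in wild-type plants (SD, n = 3 each; log2 fold change -1.47, adjusted p = 0.07 from edgeR) and was not called. *ORA59* was called lower with edgeR's exact test (adjusted p = 0.0176) and with DESeq2 (adjusted p = 0.0107). *ERF15*, a regulator of abscisic acid responses, averaged 12.2 ± 5.1 CPM in *ref4-3* and 22.1 ± 5.95 CPM in wild-type plants (SD, n = 3 each; -0.86, adjusted p = 0.0953 from edgeR), with overlapping genotypes, and was called lower with the exact test (adjusted p = 0.048) and DESeq2 (adjusted p = 0.0487).

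EAR repressor ERFs of group VIII changed in the same direction as the activators. Of 8 members, all tested, 6 (75%) were lower in *ref4-3* plants, against 11.9% of all genes tested, and none was higher. Their median log2 fold change was -1.33. The difference between these subgroups was not tested. There were 2, 2 or 1 lower without *ref4-3* replicate 1, 2 or 3 and 5 without wild-type replicate 2.

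**Figure D4:**
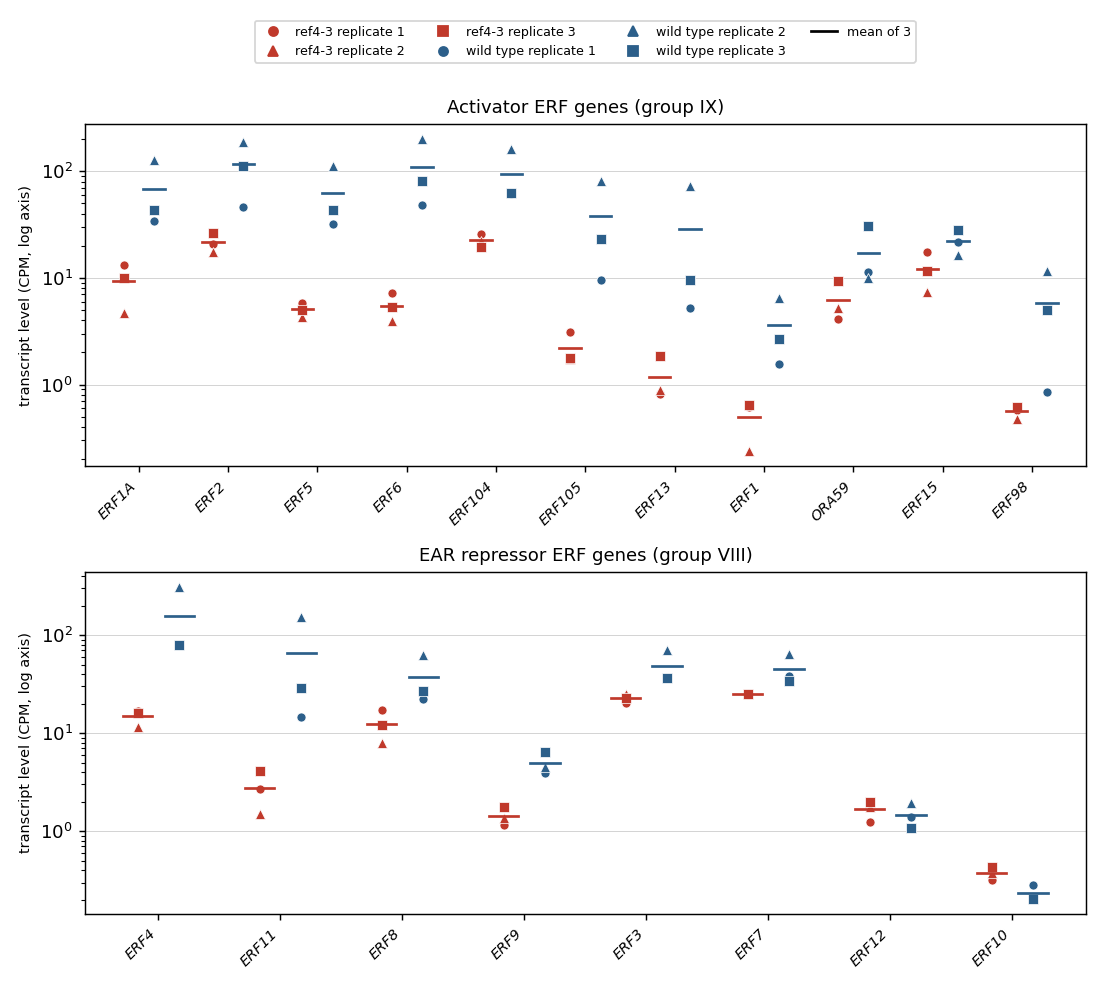
Transcript level (CPM, log axis) of the 11 tested activator ERF genes (top) and the 8 EAR repressor ERF genes (bottom) in each library, *ref4-3* in red on the left and wild type in blue on the right of each gene, with horizontal lines at the means of 3. The red points of *ERF6* lie between 3.91 and 7.17 CPM and its blue points between 48.6 and 199 CPM, whereas red and blue points of *ERF12* overlap.

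*ERF4*, the most abundant member of the subgroup in wild-type plants and a repressor of jasmonate and ethylene responses, was at 16.7, 11.7 and 16.1 CPM in *ref4-3* libraries, against 79.2, 307 and 78.6 CPM in wild-type libraries (log2 fold change -3.38, SE 0.57, adjusted p = 0.00999). *ERF11*, which represses ethylene synthesis genes, was at 2.7, 1.51 and 4.08 CPM in *ref4-3* libraries, against 14.7, 152 and 29.1 CPM in wild-type libraries (-4.56, SE 0.92, adjusted p = 0.0171). *ERF8* was at 17.1, 7.92 and 12.2 CPM in *ref4-3* libraries, against 22.4, 62.3 and 27 CPM in wild-type libraries (-1.58, SE 0.43, adjusted p = 0.0403). Wild-type replicate 2 was the highest library for all 3 genes, and the genotypes did not overlap for any of them.

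*ERF9*, a repressor of defense against necrotrophic fungi, was at 1.16, 1.37 and 1.76 CPM in *ref4-3* libraries, against 3.97, 4.56 and 6.48 CPM in wild-type libraries (log2 fold change -1.80, SE 0.27, adjusted p = 0.0072). Wild-type replicate 2 did not stand out for *ERF9*, and its call held in each of the 6 fits that left out a library. *ERF3* was at 20.1, 25.1 and 22.7 CPM in *ref4-3* libraries, against 36.6, 71 and 36.5 CPM in wild-type libraries (-1.08, SE 0.27, adjusted p = 0.0308). *ERF7*, which codes for a repressor in abscisic acid responses, was at 24.3, 25.3 and 25 CPM in *ref4-3* libraries, against 38.4, 63.8 and 34.1 CPM in wild-type libraries (-0.87, SE 0.23, adjusted p = 0.0363). The *ref4-3* libraries of *ERF7* lay within about 1 CPM of each other, and *ref4-3* libraries of both genes were below all wild-type libraries. *ERF12* and *ERF10* were not called, with log2 fold changes of 0.18 and 0.67. *ERF12*, whose neighbor *ERF11* lies 2668 bases away, averaged 1.67 ± 0.386 CPM in *ref4-3* and 1.47 ± 0.442 CPM in wild-type plants (SD, n = 3 each).

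All 6 CBF/DREB1 genes had log2 fold changes below 0, with a median of -3.74. Of these, 3 (50%) were called lower, against 11.9% of all genes tested. Without wild-type replicate 2 the median was -2.28. *CBF4*, *DDF1* and *DDF2* did not reach the filter minimum in all 3 *ref4-3* libraries, so that the median is no support for a decrease over the subgroup. Levels in *ref4-3* plants were low, with sums of 17.5, 4.25 and 6.8 CPM over the subgroup, against 58.6, 190.1 and 50.1 CPM in wild-type libraries. *ref4-3* replicate 1 was thus the highest *ref4-3* library, and every *ref4-3* sum was below every wild-type sum. The number called lower was 1 without *ref4-3* replicate 2, 0 without *ref4-3* replicate 3, and 2 without wild-type replicate 2 or 3.

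*CBF2*, *CBF3* and *CBF1*, the activators of the cold regulon, lie next to each other on chromosome 4 in this order, 1774 and 2379 bases apart. *CBF1* was at 3.2, 0.72 and 0.68 CPM in *ref4-3* libraries, against 19.8, 61.8 and 18.5 CPM in wild-type libraries (log2 fold change -4.42, SE 0.75, adjusted p = 0.0101). *CBF2* was at 3.14, 0.823 and 1.02 CPM in *ref4-3* libraries, against 12.7, 47.4 and 10.2 CPM in wild-type libraries (-3.80, SE 0.76, adjusted p = 0.0162). *CBF3* was at 10.3, 1.95 and 1.76 CPM in *ref4-3* libraries, against 23.6, 15.7 and 8.01 CPM in wild-type libraries (-1.75, SE 0.71, adjusted p = 0.113). *CBF1* and *CBF2* did not overlap between genotypes, whereas *CBF3* in *ref4-3* replicate 1 was above *CBF3* in wild-type replicate 3, and *CBF3* was highest in wild-type replicate 1, not 2. Transcripts of the 3 genes are 84.9% to 86% identical over their similar stretches, so that some reads may have been split between them.

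*DDF1*, which activates a gibberellin catabolism gene, was at 0.145, 0.24 and 2.07 CPM in *ref4-3* libraries, against 1.62, 48.1 and 10.4 CPM in wild-type libraries (log2 fold change -4.60, SE 1.34, adjusted p = 0.0482). *DDF1* was called lower although its genotypes overlapped, since *ref4-3* replicate 3 lay above wild-type replicate 1, and the call held in 1 of the 6 fits that left out a library. *CBF4* and *DDF2* were not called. *CBF4*, a drought-responsive gene, averaged 0.379 ± 0.128 CPM in *ref4-3* and 4.98 ± 6.51 CPM in wild-type plants (SD, n = 3 each; -3.69, adjusted p = 0.0535 from edgeR), and *DDF2* 0.448 ± 0.363 CPM in *ref4-3* and 2.02 ± 2.39 CPM in wild-type plants (SD, n = 3 each; -2.16, adjusted p = 0.144 from edgeR). *CBF4* was called lower with DESeq2 (adjusted p = 0.0127) and the exact test.

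None of the 3 DREB2 genes among the members was called. Outside the members, 2 genes of the same annotated subfamily, A-2, were called higher. These were *DREB19* (log2 fold change 1.73, adjusted p = 0.043 from edgeR) and *AT2G40350* (1.43, adjusted p = 0.0193). *AT1G75490* (-1.38) and *AT3G57600* (-0.21), also of A-2, were not called, and *AT5G18450* was not tested. *DREB2A*, which codes for an activator of drought and heat response genes, was at 19.8, 6.86 and 12.5 CPM in *ref4-3* libraries, against 21.4, 83.2 and 26.6 CPM in wild-type libraries (log2 fold change -1.74, SE 0.58, adjusted p = 0.0689). Its genotypes did not overlap, but *ref4-3* replicate 1 and wild-type replicate 1 differed by less than 2 CPM. Under edgeR's exact test, DESeq2 and the absence of a filter on low counts, *DREB2A* was called lower. *DREB2B* and *DREB2C* had log2 fold changes of -0.55 (adjusted p = 0.0926, SE 0.20) and 0.02 (adjusted p = 0.942, SE 0.21). *DREB2B* shares 69.5% of its exons with *TBL32* on the opposite strand, which had a log2 fold change of 0.18 (adjusted p = 0.409 from edgeR).

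DREB genes of subgroup A-5 (group II) included the largest decrease among the members. Of 7 members, all with log2 fold changes below 0, 4 (57.1%) were called lower, against 11.9% of all genes tested. The median of these members, -3.68, is no support for a decrease over the subgroup, since *AT1G22810*, *AT1G19210* and *AT5G21960* passed the filter through the wild-type libraries alone. It was -1.57 with at least 10 counts in every library and -2.28 without wild-type replicate 2. The number called lower was 2, 1 or 0 without *ref4-3* replicate 1, 2 or 3 and 2 without wild-type replicate 2. Annotated A-5 genes outside the members went in both directions. *AT1G44830* (-2.76) and *RAP2.9* (-2.18) were called lower, and *DEAR3* (0.63, adjusted p = 0.0286 from edgeR) was called higher. The others were not called, among them *AT4G31060* (0.63), *RAP2.10* (-0.18), *DEAR2* (-0.55) and *AT1G77640* (-1.39). *ORA47*, a jasmonate-responsive regulator of jasmonate synthesis genes, was at 3.22, 0.857 and 2.32 CPM in *ref4-3* libraries, against 29.6, 215 and 29.4 CPM in wild-type libraries. Its log2 fold change of -5.40 (adjusted p = 0.0123 from edgeR, SE 0.98) was a 42.3-fold decrease, and without wild-type replicate 2 it was -3.79. *CEJ1*, a repressor gene responsive to ethylene and jasmonate, was at 6.36, 3.5 and 5.75 CPM in *ref4-3* libraries, against 13, 74.6 and 37.2 CPM in wild-type libraries (-2.99, SE 0.59, adjusted p = 0.0159). Neither gene overlapped between genotypes.

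The remaining A-5 members were weakly expressed or differed little. *AT1G22810* was at 0.349, 0.171 and 0.247 CPM in *ref4-3* libraries, against 0.413, 7.23 and 2.44 CPM in wild-type libraries (log2 fold change -3.68, SE 0.97, adjusted p = 0.0361). *AT1G19210* had 3, 1 and 14 counts in *ref4-3* libraries, against 30, 232 and 27 counts in wild-type libraries (-4.15, SE 1.11, adjusted p = 0.0384). Genotypes did not overlap for either gene, but 2 of the *ref4-3* libraries of *AT1G19210* were at or under 3 counts, so the size of its change is uncertain. For *AT1G22810*, *ref4-3* replicate 1 had 12 counts and wild-type replicate 1 had 13. The calls of *AT1G22810* and *AT1G19210* held in 1 and in 2 of the 6 fits that left out a library. *AT1G22810* shares 81.2% of its exonic bases with an antisense noncoding RNA gene, with means of 0.0629 CPM in *ref4-3* and 0.124 CPM in wild-type plants. *AT5G21960* had 9, 6 and 11 counts in *ref4-3* libraries, against 28, 340 and 14 counts in wild-type libraries, and was not called (-4.02, adjusted p = 0.0542 from edgeR), although it was with the exact test. *DREB26* (-0.12) and the repressor gene *RAP2.1* (-0.30) were not called, and *DREB26* had a log2 fold change of 0.78 without wild-type replicate 2.

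**Figure D5:**
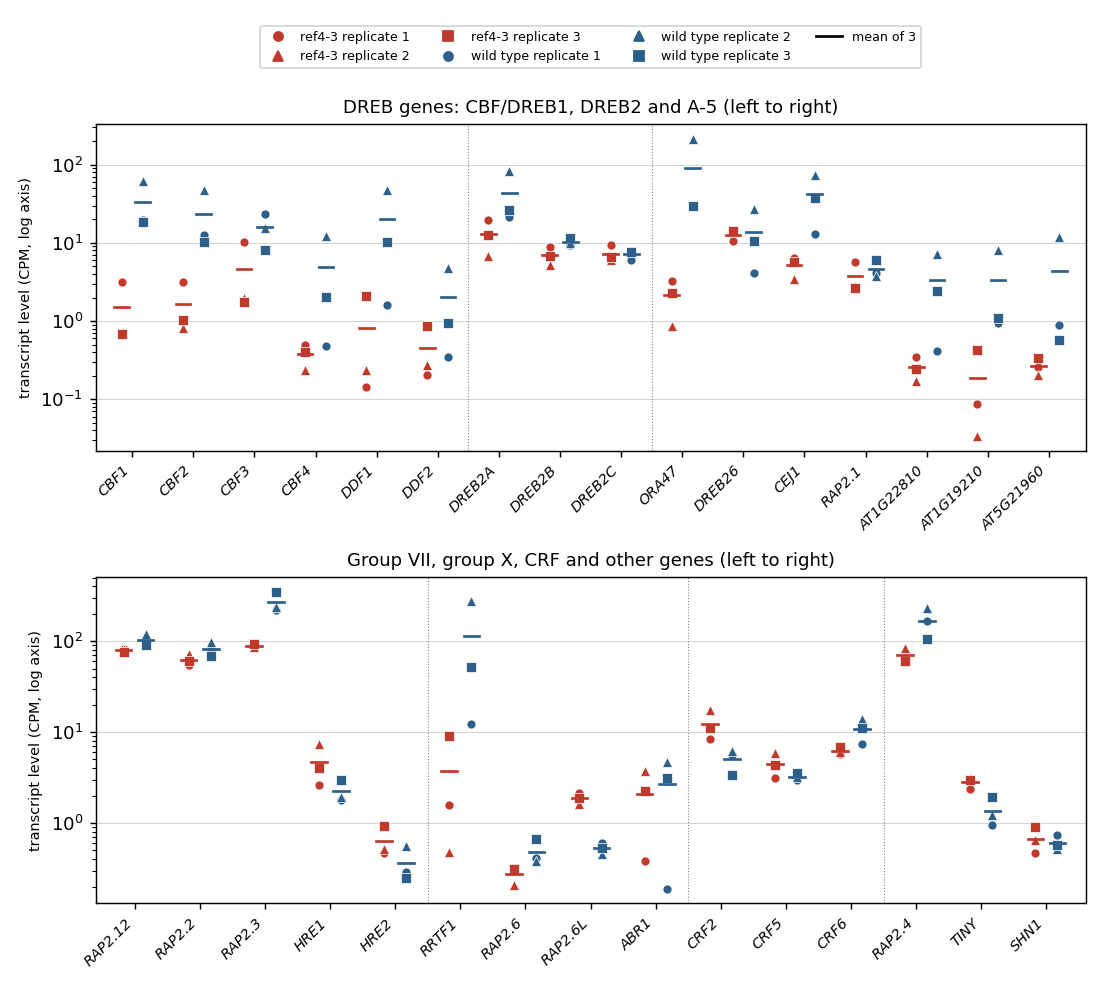
Transcript level (CPM, log axis) of the CBF/DREB1, DREB2 and A-5 genes (top, separated by dotted lines) and of the group VII, group X, CRF and other genes (bottom) in each library, *ref4-3* in red on the left and wild type in blue on the right of each gene, with horizontal lines at the means of 3. *ORA47* and *RRTF1* have blue triangles (wild-type replicate 2) at 215 and 280.1 CPM, and *RAP2.3* has its 3 blue points close together, at 220.4 to 351 CPM, above red points at 85.5 to 93.2 CPM.

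Group VII ERFs, whose stability depends on oxygen, split by gene. *RAP2.3* was at 86.8, 85.5 and 93.2 CPM in *ref4-3* libraries, against 220.4, 239.9 and 351 CPM in wild-type libraries (log2 fold change -1.61, SE 0.19, adjusted p = 0.00411). It had the smallest SE among the members called lower, its genotypes did not overlap, and the call held in each of the 6 fits that left out a library. *RAP2.12* and *RAP2.2*, which activate hypoxia genes, had log2 fold changes of -0.37 (adjusted p = 0.0963, SE 0.14) and -0.38 (adjusted p = 0.144, SE 0.17). The hypoxia-induced genes *HRE1* and *HRE2* had log2 fold changes of 1.06 (adjusted p = 0.0988, SE 0.40) and 0.79 (adjusted p = 0.253, SE 0.48) and were not called either. *HRE1* averaged 4.67 ± 2.45 CPM in *ref4-3* and 2.25 ± 0.67 CPM in wild-type plants (SD, n = 3 each), with overlapping genotypes, and was called higher with DESeq2 (adjusted p = 0.0435).

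Group X held 1 gene that was lower and the gene with the largest increase among the members. *RRTF1* (*ERF109*), a redox- and jasmonate-responsive gene, was at 1.57, 0.48 and 9.09 CPM in *ref4-3* libraries, against 12.4, 280.1 and 52.6 CPM in wild-type libraries (log2 fold change -4.94, SE 1.37, adjusted p = 0.0427). Genotypes did not overlap, but *ref4-3* replicate 3 came close to wild-type replicate 1, and the call held in 1 of the 6 fits that left out a library, the one without wild-type replicate 1. *RRTF1* shares 47.7% of its exonic bases with an antisense noncoding RNA gene and 16.3% with *AT4G34412*, also antisense. *RAP2.6L*, which acts in wound healing and waterlogging responses, was at 2.1, 1.61 and 1.89 CPM in *ref4-3* libraries, against 0.603, 0.452 and 0.537 CPM in wild-type libraries (1.81, SE 0.27, adjusted p = 0.00753). Every *ref4-3* library was above every wild-type library for *RAP2.6L*, wild-type replicate 2 did not stand out, and the call held in each of the 6 fits that left out a library. Its increase stands beside that of the root markers, and the part of root tissue in it was not tested. *RAP2.6* and *ABR1* were not called, with log2 fold changes of -0.77 (SE 0.43) and -0.35 (SE 0.99).

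The 3 CRFs among the members differed in direction among themselves. *CRF2* was at 8.48, 17.3 and 11 CPM in *ref4-3* libraries, against 5.59, 6.22 and 3.34 CPM in wild-type libraries (log2 fold change 1.27, SE 0.32, adjusted p = 0.032). *CRF6*, which delays leaf senescence under stress, was at 5.72, 6.03 and 6.89 CPM in *ref4-3* libraries, against 7.43, 14 and 11.2 CPM in wild-type libraries (-0.80, SE 0.24, adjusted p = 0.0492). *CRF5* had a log2 fold change of 0.45 (adjusted p = 0.218, SE 0.25) and was not called. *CRF2* and *CRF6* each did not overlap between genotypes, and their calls held in 2 and in 1 of the 6 fits that left out a library. Outside the members, *CRF10* was called higher (0.59, adjusted p = 0.0334 from edgeR) and *CRF11* lower (-0.76, adjusted p = 0.0229). These calls held in 1 and in 5 of the 6 fits. *CRF1*, *CRF3*, *CRF4*, *CRF7*, *CRF8* and *CRF12* were not called, and *CRF9* was not tested.

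The remaining members belong to other subgroups. *RAP2.4*, a light- and ethylene-responsive gene, was at 65.6, 84.4 and 61.3 CPM in *ref4-3* libraries, against 167, 231 and 106 CPM in wild-type libraries (log2 fold change -1.25, SE 0.28, adjusted p = 0.0224). *TINY*, which restrains growth when overexpressed, was at 2.38, 3.12 and 2.94 CPM in *ref4-3* libraries, against 0.952, 1.22 and 1.94 CPM in wild-type libraries (1.05, SE 0.30, adjusted p = 0.0466). Neither overlapped between genotypes, and the calls held in 3 and in 1 of the 6 fits that left out a library. *SHN1*, a regulator of cuticular wax, had a log2 fold change of 0.13 (adjusted p = 0.813, SE 0.37).

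Levels per kilobase of exon place the members on one scale. In wild-type plants *RAP2.3* was highest, at a mean of 207 CPM per kilobase, followed by *ERF4* (136), *ERF2* (88.3), *RRTF1* (83.1), *ERF6* (82), *RAP2.4* (78.5) and *ORA47* (75.6). In *ref4-3* plants *RAP2.3* was again highest, at 67.8 CPM per kilobase, followed by *RAP2.12* (41.8), *RAP2.2* (34.2), *RAP2.4* (33), *ERF2* (16.4) and *ERF104* (16.2). In the wild-type order, no neighbors differed by more than the SD of the more variable gene. In the *ref4-3* order, *RAP2.3*, *RAP2.12* and *RAP2.2* differed from each other by more than their SDs, whereas *RAP2.2* and *RAP2.4*, and likewise *ERF2* and *ERF104*, did not. Without wild-type replicate 2, *RAP2.3* (219), *ERF4* (69.1), *RAP2.4* (63.7) and *ERF2* (60.5) led the wild-type order, and *ORA47* (24.4) and *RRTF1* (23.5) were not among its 7 highest members.

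Upstream of the ERFs, the 12 ethylene signaling genes tested all had log2 fold changes below 0, against 49% of all genes tested. Their median was -0.42, and 5 (41.7%) were called lower, against 11.9% of all genes. The largest decreases were those of the receptor gene *ETR2* (-1.75, SE 0.25, adjusted p = 0.00619), of *EBF1* (-0.97, SE 0.23, adjusted p = 0.0282) and of *EBF2* (-0.83, SE 0.17, adjusted p = 0.0163). *EBF1* and *EBF2* code for F-box proteins that target EIN3. *EIN3*, which codes for the transcription factor upstream of *ERF1*, averaged 75.1 ± 3.02 CPM in *ref4-3* and 124 ± 22.4 CPM in wild-type plants (SD, n = 3 each; -0.73, adjusted p = 0.018 from edgeR). The number called lower in this list was 3, 2 or 1 without *ref4-3* replicate 1, 2 or 3.

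Downstream of group IX, 4 of 7 defense genes (57.1%) were lower, against 11.9% of all genes tested, and 1 (14.3%) was higher, against 8.52%. *PDF1.2b* (log2 fold change -5.74, SE 0.37, adjusted p = 4.9e-04), *PDF1.2c* (-5.19, SE 0.31, adjusted p = 4.0e-04) and *PDF1.2a* (-4.25, SE 0.49, adjusted p = 0.00375) are plant defensin genes that ORA59 and ERF1 activate. *PDF1.2a* was at 6.01, 1.61 and 7.29 CPM in *ref4-3* libraries, against 78.3, 107 and 101 CPM in wild-type libraries. These wild-type libraries were close to each other, and wild-type replicate 2 did not stand out as it did for the ERF genes. *PR3*, a chitinase gene, was higher (1.60, SE 0.38, adjusted p = 0.0263), a call that held in 2 of the 6 fits that left out a library.

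Known regulators and targets of the CBF genes did not share one direction. Of 16 regulator genes, 8 (50%) were lower, against 11.9% of all genes tested. The only one that was higher (6.25%, against 8.52% of all genes) was the kinase gene *OST1* (1.63, SE 0.20, adjusted p = 0.00439). The number called lower was 3, 1 or 1 without *ref4-3* replicate 1, 2 or 3 and 5 without wild-type replicate 1 or 2. The largest decreases were those of *MYB15*, a repressor of CBF genes (-4.57, SE 1.1, adjusted p = 0.0279), and of the clock genes *PRR9* (-1.73, SE 0.49, adjusted p = 0.0454) and *PRR5* (-1.61, SE 0.28, adjusted p = 0.0111). Of 10 target genes, 1 was lower (10%) and 4 were higher (40%, against 8.52% of all genes tested), with a median log2 fold change of 0.74. *COR15A*, a cold-regulated gene activated by CBFs, averaged 3006 ± 858 CPM in *ref4-3* and 390.3 ± 88.6 CPM in wild-type plants (SD, n = 3 each; 2.95, SE 0.26, adjusted p = 0.00144 from edgeR). *KIN1* (3.85, SE 0.37, adjusted p = 0.00195) and *XERO2* (1.77, SE 0.41, adjusted p = 0.0254) were also higher, although the call of *XERO2* was lost without any 1 of the *ref4-3* libraries and without wild-type replicate 2. Among the targets, *GOLS3* was lower (-1.79, SE 0.37, adjusted p = 0.0177), a call that was lost without *ref4-3* replicate 2 or 3. Thus *CBF1* and *CBF2* were lower in *ref4-3* plants while 4 of these targets were higher.

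Core hypoxia genes, outputs of group VII, mostly were not called. Of 10 genes, 2 were lower, *SAD6* (-1.53, SE 0.23, adjusted p = 0.00769) and *LBD41* (-0.73, SE 0.14, adjusted p = 0.0146), and *ADH1* was higher (0.87, SE 0.16, adjusted p = 0.0138). These shares of 20% lower and 10% higher lie near the 11.9% and 8.52% of all genes tested. Without *ref4-3* replicate 2 or 3, 1 gene was called lower, without wild-type replicate 1 there were 3, and the call of *ADH1* was lost without *ref4-3* replicate 3.

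Members with a G box in the promoter were called lower about as often as those without one, 8 of 15 (53.3%) with and 18 of the 35 tested (51.4%) without. Over all genes tested, 11.9% were called lower and 8.52% higher. Of the 25 members with a W box core, 17 (68%) were called lower and 2 were higher, whereas of the 25 tested members without one, 9 (36%) were lower and 1 was higher. Neither difference was tested, and the split by motif was not repeated with a library left out. The share of promoters with a W box core also differed by subgroup, from 16.7% in CBF/DREB1 to 75% in group VIII. Motif and subgroup therefore cannot be told apart in this split.

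Other genes that the annotation notes assign to the ERF/AP2 family were also counted. Of 72 such genes, 55 were tested, 7 (12.7%) were lower and 5 (9.09%) were higher, with a median log2 fold change of 0.00, set beside 52% and 6% of the tested members. The other 17 did not pass the filter on low counts. All 72 are genes left after the members were chosen with earlier results of these data known, so the contrast is no test. Among the called genes, the largest decreases were in *AT1G33760* (log2 fold change -3.94), *AT1G44830* (-2.76) and *RAP2.9* (-2.18), which were called in 3, 5 and 6 of the 6 fits that left out a library. The largest increases among the called genes were in *DREB19* (1.73), *AT2G40350* (1.43) and *ESE2* (1.05), which were called in 0, 4 and 1 of these fits. The summed level of the 72 genes was 763, 818 and 707 CPM in *ref4-3* libraries, against 581, 625 and 795 CPM in wild-type libraries, so that genotypes overlapped and wild-type replicate 2 did not stand out.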

How the data were processed

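RNA was sequenced from poly(A)-selected libraries made with a directional kit. The authors trimmed reads with fastp 0.23.2, mapped them to TAIR10 with HISAT2 2.2.1, processed alignments with SAMtools 1.17 and deposited raw counts per gene. The strand setting of the counting and how it handled multimapping reads are not given in the sources used here. The methods name edgeR's exact test, which was run as an alternative.

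The 6 columns were matched to genotype and replicate by their labels. Genes were tested with edgeR 4.0.16 (R 4.3.3): filterByExpr (minimum count 10, minimum total 15) kept 23050 genes, and a two-sided quasi-likelihood test of genotype followed TMM normalization, with Benjamini-Hochberg adjustment over all genes tested. The SE comes from the quasi-likelihood F statistic. Members and gene lists were chosen with earlier results of these data known. Values per library are given for members with an adjusted p-value under 0.05, the member of highest mean CPM in each subgroup and *CBF1* to *CBF3*; from other lists, up to 3 called genes in each direction are named, and *EIN3* was added after its values were seen. Protein motifs were not analysed. Promoters were read with Python 3.11.15 from TAIR10.1, and 36632 of 36796 table genes matched its annotation. Alternatives were edgeR's exact test, DESeq2 1.42.0, RLE size factors, no filter, at least 10 counts in every library, a replicate block and leaving out each library.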

Additional observations from a re-analysis of the deposited data

How the results depend on the processing

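The 29 called members kept their direction under each setting below, except that *ERF1*, *DDF1*, *AT1G22810* and *AT1G19210* were not tested with at least 10 counts in every library. Of the 26 members called lower, 17 were also called with the replicate number as a block, in a total of 19 lower and 2 higher. Deviations from the genotype means correlated at -0.10, -0.02 and 0.21 between libraries of the same number, and at -0.14 to 0.13 between libraries of different numbers. With 3 libraries of each genotype, these values cannot settle whether the numbers pair the samples. The number called lower was 31 with edgeR's exact test, 30 with DESeq2, 24 with RLE size factors, 30 with no filter and 21 with at least 10 counts in every library. The number called higher was 2 with no filter.

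By subgroup, DREB2 had 1 gene lower with the exact test, DESeq2 or no filter, and group VII had 1 higher with DESeq2. A-5 had 2 lower with at least 10 counts or the block, CBF/DREB1 had 2 lower with RLE size factors or at least 10 counts, group X had 0 lower with the block, and CRF had 0 lower with RLE size factors, at least 10 counts or the block. *TINY* left 0 higher among the other members with no filter or the block. Of the context lists, ERF defense outputs had 0 higher with the block, CBF regulators 4 lower with at least 10 counts, and hypoxia genes 4 lower with the exact test or DESeq2.

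Leaving out 1 library gave 4 to 29 members lower and 1 to 2 higher, with 2 to 9 lower in group IX, 1 to 6 in group VIII, 0 to 4 in CBF/DREB1, 0 to 1 in DREB2, 0 to 5 in A-5, and 0 to 1 in group X, CRF and the other members, where 0 to 1 were higher in CRF and in the other members. Over the lists it gave 1 to 5 lower in ethylene signaling, 1 to 6 in CBF regulators, 0 to 1 in CBF targets, 1 to 3 in hypoxia and 5 to 12 in rapidly induced genes, and 0 to 1 higher in ERF defense outputs and in hypoxia. Over all genes tested, 1008 were called without *ref4-3* replicate 3 and 3362 with the block.

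Among genes that were not called, leaving out 1 library gave log2 fold changes of -0.04 to 0.41 for *ERF12*, -0.19 to 0.14 for *DREB2C*, -0.59 to 0.78 for *DREB26*, -1.03 to 0.35 for *ABR1* and -0.14 to 0.34 for *SHN1*. *DREB2C* was at -0.07 with no filter and *DREB26* at 0.24 with the block. The cause of these changes was not tested, except that the fits without a library rest on 5 libraries.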
